A study of Homo sapiens with 12 samples.

Results

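Entinostat was added to dabrafenib plus trametinib in SKMEL2 cells, an established human melanoma line, and the 3 arrays with all 3 agents (DTE) were set against the 3 arrays with dabrafenib and trametinib alone (DT). These 6 arrays, taken by the treatment given in their sample titles, are part of a set of 12. DTE cells received dabrafenib at 100 nM, trametinib at 10 nM and entinostat at 1 µM, and DT cells received dabrafenib at 100 nM and trametinib at 10 nM. The other 6 arrays are 3 with entinostat alone at 1 µM (E) and 3 with the vehicle DMSO, and RNA of all 4 arms was taken at 24 h. Dabrafenib inhibits RAF kinases and trametinib inhibits the kinases MEK1 and MEK2. All arms are of this 1 line, so every value below is of 1 genetic background. The comparison asks which transcripts change when a deacetylase inhibitor is laid over MAPK inhibition.

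Histone deacetylases remove acetyl groups from histone tails and other proteins, and the class I enzymes that entinostat inhibits work inside corepressor complexes that keep genes silent. Acetylated histones are in turn bound by readers and written by acetyltransferases. In melanoma the RAF, MEK and ERK kinases pass growth signals to transcription factors, and blocking them lowers the mRNA of feedback inhibitors and cell cycle genes.

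The arrays gave a linear intensity for each probe set, and 14582 genes were measured, each by 1 probe set. Intensities of different genes are not on a common scale, so each gene is compared only with itself. Arrays of one arm correlated at 0.9909 to 0.9933, and DTE with DT arrays at 0.964 to 0.9677. Of 11 melanocytic marker genes 10 were measured, and all 10 were above the background level of the arrays in at least 1 of the DTE and DT arms. Their summed intensity was 2570 to 2800 on DTE arrays and 4640 to 5230 on DT arrays. Of the markers of other cell types, 2 of 3 measured fibroblast genes, 3 of 7 keratinocyte genes, 4 of 4 leukocyte genes and 3 of 4 endothelial genes were above background. Summed endothelial markers, among them the receptor gene KDR, were 89.2 to 98.5 on DTE arrays and 60.5 to 70.2 on DT arrays. Summed leukocyte markers were 160 to 171 on DTE and 269 to 321 on DT arrays, keratinocyte markers 75.3 to 85.8 and 96.3 to 104, and fibroblast markers 34.5 to 43.3 and 33.5 to 43.1. These sums are of deposited values, so they hold the difference in overall level between the arrays given next, and the brightest gene of a set weighs most. The part of other cell types in the results below was not tested.

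The DTE arrays were dimmer than the DT arrays, and this sets how every gene reads. The geometric mean intensity of the genes brighter than the median gene was 61.2, 66.7 and 68.5 on the DTE arrays, against 107.7, 94.78 and 106.9 on the DT arrays. No DTE array reached any DT array. The arms averaged 65.5 ± 3.78 in DTE and 103 ± 7.22 in DT (SD, n = 3 each), a difference of -0.654 on the log2 scale. An exact two-sided permutation test over the arrays gave p = 0.1, the smallest that the 20 regroupings of 3 against 3 allow. The shift depended on brightness: in 10 equal bins of genes its median was -0.00733 in the dimmest bin, -0.748 in the ninth and -0.71 in the brightest. The E arrays averaged 143 ± 18.7 and the DMSO arrays 129 ± 15 (SD, n = 3 each), a difference of 0.148 (exact permutation p = 0.4). In RNA from whole cultures, fewer cells and less RNA per cell cannot be told apart, and the sources used here do not say how the deposited arrays were rescaled against one another.

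**Figure D1:**
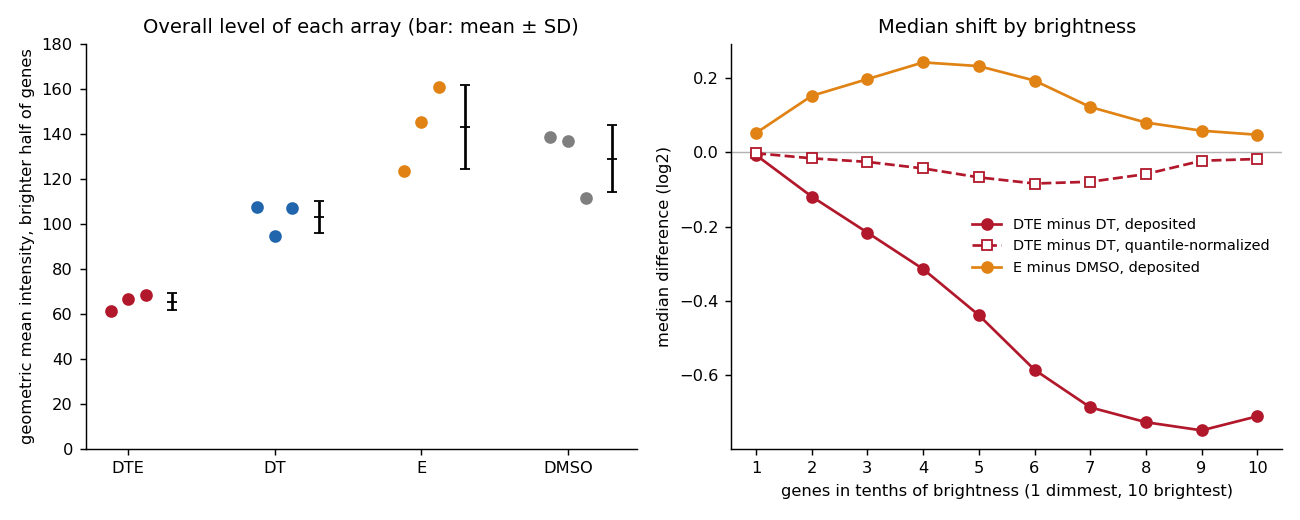
Overall level of the 12 arrays (left, geometric mean intensity of the genes brighter than the median gene, points are arrays and bars mean ± SD) and the median log2 difference in 10 bins of brightness (right). The 3 DTE arrays sit between 61.2 and 68.5, below the DT arrays, and the deposited DTE minus DT shift grows with brightness while the quantile-normalized one stays near 0.

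Each gene is therefore given on both scales. The deposited values hold the overall level, and quantile-normalized values, in which all arrays have the same distribution, hold each gene relative to it. Tests are limma's, with Benjamini-Hochberg adjustment over the 14582 genes and a threshold of 0.05, differences are log2 of DTE over DT with their SE, and adjusted p-values are limma's throughout. A gene is said to have risen or fallen only when it passed the threshold in the same direction on both scales. The sample titles call the arrays biological replicates and the series text calls them technical triplicates, so a p-value here speaks of array-to-array spread alone, which may be technical.

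In deposited values 597 genes (4.09%) were higher and 7869 (54.0%) lower in DTE than in DT. After quantile normalization 2369 (16.2%) were higher and 2651 (18.2%) lower. On both scales 592 genes (4.06%) rose and 2641 (18.1%) fell, and 293 genes were called in opposite directions on the 2 scales. With at least a 2-fold change after normalization, 394 genes (2.70%) rose and 172 (1.18%) fell. The median gene differed by -0.41 in deposited values and by -0.03 after normalization. Each gene list below is to be read beside those medians, and beside the 4.06% of all genes that rose and the 18.1% that fell.

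Among the genes that the naming rule allows (given with the processing), the largest rises were in STC1 and TSPAN13. STC1, which encodes the secreted glycoprotein stanniocalcin, had intensities of 139, 152 and 195 in DTE, against 10.9, 13.4 and 12.1 in DT. Its DT arm was not well above background, so it was at least 12.2-fold higher in deposited values and at least 20.1-fold higher after normalization (adjusted p = 1.6e-13 and 8.4e-10). TSPAN13, a tetraspanin of the cell membrane, had 121, 156 and 189 in DTE against 16.2, 15.5 and 18.7 in DT. Its difference was 3.19 ± 0.16 in deposited values and 3.90 ± 0.13 after normalization (adjusted p = 6e-13 and 8.4e-10). The lowest DTE array of either gene was far above the highest DT array.

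Several of the other 8 genes with the largest rises are known from neurons. KIF5C, a kinesin heavy chain that carries cargo along axons, had 80.7, 88.7 and 91.1 in DTE and 17.6, 17.8 and 15.8 in DT, a difference of 2.35 ± 0.16 (3.07 after normalization). SYN1, a synapsin that tethers synaptic vesicles, had 124, 124 and 100 in DTE and 23.5, 23.8 and 24.4 in DT, a difference of 2.27 ± 0.17 (2.98 after normalization). CLSTN3, a synaptic adhesion protein of the calsyntenin family, averaged 83.4 ± 19.2 in DTE and 17.6 ± 7.36 in DT (SD, n = 3 each). SLIT2, a secreted axon guidance ligand, averaged 43 ± 7.01 in DTE and 9.9 ± 1.05 in DT (SD, n = 3 each), and with DT not well above background it was at least 3.27-fold higher in deposited values. The remaining 4 genes are from elsewhere. EBLN1, a gene derived from a bornavirus nucleoprotein, was at least 3.45-fold higher in deposited values, with DT not well above background. FLG, the epidermal protein filaggrin, averaged 226 ± 37.7 in DTE and 56.3 ± 10.1 in DT. The actin-bundling plastin PLS1 had differences of 2.13 ± 0.16 and 2.85 ± 0.14 on the 2 scales, and COXFA4L3, related to a subunit of mitochondrial complex IV, had 2.29 ± 0.15 and 2.98 ± 0.15. In all 8 the DTE arrays were above the DT arrays on both scales, as the rule that named them requires.

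The largest falls were named, as the rises were, among genes whose highest arm mean was above the median gene. A gene low in DTE could pass that filter through its DT arm alone. ANGPTL7, a secreted angiopoietin-like protein, had 133, 170 and 111 in DTE against 2653, 2404 and 2747 in DT, a difference of -4.26 ± 0.18 in deposited values and -3.54 ± 0.15 after normalization (adjusted p = 9.5e-14 and 4.9e-09). TRIM48, a member of the tripartite motif family with close relatives whose transcripts its probes may also bind, had 18.3, 21.5 and 11.4 in DTE against 307, 327 and 199 in DT. Its normalized difference was -3.71 ± 0.27. MAP1LC3C, a relative of the autophagosome protein LC3, had 13, 14.9 and 13.5 in DTE, just above background, against 155, 112 and 137 in DT, with differences of -3.27 ± 0.14 and -3.02 ± 0.09. FOXD3, a transcription factor of the neural crest, had 20.1, 17 and 13.8 in DTE against 155, 127 and 128 in DT, with differences of -3.02 ± 0.15 and -2.69 ± 0.18. In each of these genes every DTE array was below every DT array, as the rule that named them requires.

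The other 6 of the 10 largest falls had normalized differences between -3.38 and -2.07. LCTL, a klotho family member, averaged 57.2 ± 3.3 in DTE and 434 ± 30 in DT (SD, n = 3 each). PLXNB3, a semaphorin receptor, averaged 26.8 ± 1.19 in DTE and 171 ± 24.5 in DT. JADE2, a PHD finger protein found in histone acetyltransferase complexes, averaged 14.3 ± 0.822 in DTE and 71.4 ± 11 in DT. KRTAP21-1, a keratin-associated protein, averaged 20.6 ± 2.51 in DTE and 184 ± 30.8 in DT. The pseudogene AQP7P1 averaged 22 ± 2.08 in DTE and 309 ± 30.9 in DT, and its probes may bind transcripts of aquaporin relatives. ARHGEF35, which has a near-identical copy, was not well above background in DTE and at least 4.48-fold lower there than in DT in deposited values.

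**Figure D2:**
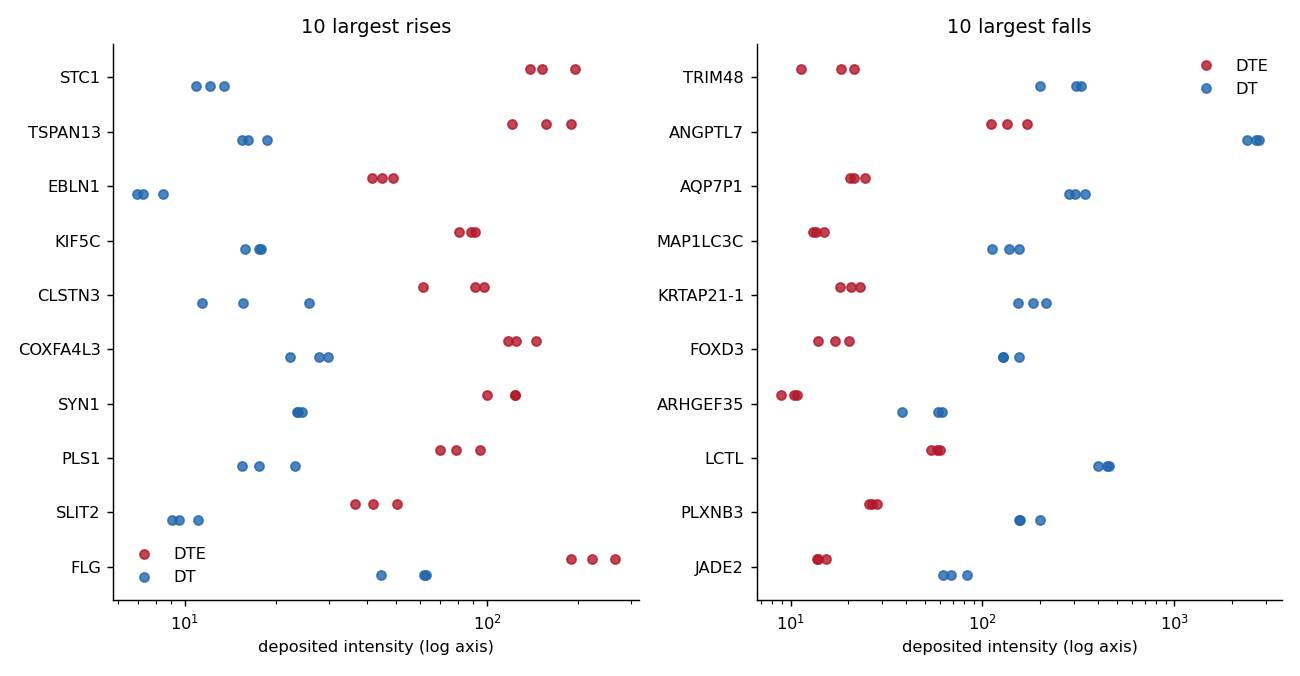
Deposited intensities (log axis) of the genes with the 10 largest rises and the 10 largest falls of DTE against DT by the normalized difference, with the 3 DTE arrays drawn above the 3 DT arrays of each gene. STC1 lies at 139 to 195 in DTE and 10.9 to 13.4 in DT, and ANGPTL7 at 111 to 170 in DTE and 2404 to 2747 in DT. No gene overlaps between the arms, as the rule that named them requires.

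Class I deacetylases come first among the gene lists. HDAC1, HDAC2 and HDAC3 are the main targets of entinostat, and HDAC8 is little inhibited by it. HDAC1 had 84.5, 81.4 and 96.1 in DTE and 129, 110 and 126 in DT. HDAC1 was thus lower in deposited values (-0.48 ± 0.15, adjusted p = 0.0074) and higher relative to the array level (0.25 ± 0.08, adjusted p = 0.023). HDAC3 also changed sign, with -0.37 ± 0.14 in deposited values and 0.36 ± 0.09 after normalization (adjusted p = 0.028 and 0.0087). The deposited call of HDAC3 was lost without DTE replicate 1 (-0.30), DTE replicate 2 (-0.37) or DT replicate 1 (-0.26). HDAC2 differed by -0.16 ± 0.16 in deposited values (adjusted p = 0.42) and by 0.40 ± 0.10 after normalization (adjusted p = 0.0076), and its arrays overlapped between the arms in deposited values. HDAC8 was lower in deposited values only (-0.87 ± 0.15, adjusted p = 2.6e-05, against -0.13 ± 0.09, adjusted p = 0.33).

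Of 35 class I deacetylases and corepressor subunits 27 were measured, and 7 fell and none rose. After normalization 4 were higher and 7 lower, and the list's median was -0.04 (-0.76 in deposited values). The chromatin remodeller CHD3 fell by 1.32 in deposited values and by 0.67 after normalization. The scaffold SIN3A had 135, 143 and 149 in DTE and 354, 301 and 394 in DT, and the corepressor subunit HMG20B fell by 0.40 after normalization. The demethylase KDM1A was higher after normalization only (0.44, against -0.28 in deposited values). Among the 14 other deacetylases, all measured, 5 fell and none rose, and 1 was higher after normalization. HDAC9 had 37, 36.6 and 39.5 in DTE and 98.3, 81.4 and 98 in DT, and HDAC11, HDAC7 and SIRT2 had normalized differences of -0.52, -0.67 and -0.71. Of 12 measured acetyltransferases and acetyl-lysine readers out of 20, 8 fell and none was higher on either scale. The median of this list was -1.13 in deposited values and -0.48 after normalization. KAT2B, a coactivator acetyltransferase, had 448, 478 and 478 in DTE and 1571, 1461 and 1716 in DT. KAT6B, KAT5 and CREBBP fell by 1.02, 0.92 and 0.63 after normalization. Every DTE array of KAT2B was under every DT array.

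In the neuronal list genes rose and none fell. Of 65 genes 39 were measured and 12 rose. After normalization 26 were higher and none lower, while in deposited values 12 were higher and 5 lower. The median was 0.56 after normalization and 0.07 in deposited values. Of the 39, 6 were not well above background in either arm. Besides KIF5C and SYN1, the microtubule protein MAP2 had 189, 222 and 252 in DTE and 119, 95.8 and 122 in DT (0.98 in deposited values and 1.66 after normalization). MAPT, which encodes tau, had 49.5, 59.4 and 57.8 in DTE and 18.9, 21.9 and 22.4 in DT (1.40 and 2.07). SYT1, a calcium sensor of vesicle release, had 62.1, 56.4 and 71.3 in DTE and 47.3, 38.8 and 46.4 in DT (0.52 and 1.19). In all 5 of these genes the DTE arrays were above the DT arrays. A list of matrix and adhesion genes had only 5 of 47 members measured, of which 4 rose. Those 4 are protocadherins, cell adhesion proteins mostly known from neurons: PCDH10 had 235, 216 and 250 in DTE and 54.9, 56.9 and 71.3 in DT, PCDH17 and PCDH9 had normalized differences of 1.80 and 2.19, and PCDH18 had 22.6, 23.7 and 29.4 in DTE with DT not well above background.

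Neuronal genes are classically silenced outside neurons by the repressor REST, which recruits class I deacetylase complexes to a DNA element named RE1. Its core letters, CAGCACC and then GGACA with any 2 bases in between, were searched on both strands of RefSeq promoter windows of GRCh38.p14, which run 250 bases before to 50 after a transcript start. They were found in 21 of 35116 windows (0.0598%). Of the tested genes with a window 11 of 10562 (0.104%) held a match, of those that rose 3 of 430 (0.698%), of those that fell 2 of 2098 (0.0953%), and of the neuronal list 1 of 29 (3.45%). A match is a description of the letters and shows no binding. The 3 risen genes are shown because they are all the risen genes with a match. They are SYN1, OGDHL, which encodes a relative of a mitochondrial dehydrogenase, and TTC9B, a tetratricopeptide repeat protein. SYN1 had been named for the size of its rise, and the last 2 were chosen after their values were seen. The motif was also chosen after values of these data were seen. SYN1 is the 1 match of the neuronal list as well, so the shares of risen and of neuronal genes are not separate. Each sequence is given 5′ to 3′ with the matched letters in capitals, on the minus strand for SYN1 and OGDHL and on the plus strand for TTC9B, and the stretch of SYN1 is the 250 bases before its start (chrX:47619858-47620107), where the match begins 231 bases before the start. For the other 2 genes the stretch is the match with 8 bases on either side. That of OGDHL is chr10:49762418-49762447, where the match begins 116 and 60 bases before 2 annotated starts. That of TTC9B is chr19:40218344-40218373, where the match is opposite to the gene's strand and past its start.
SYN1: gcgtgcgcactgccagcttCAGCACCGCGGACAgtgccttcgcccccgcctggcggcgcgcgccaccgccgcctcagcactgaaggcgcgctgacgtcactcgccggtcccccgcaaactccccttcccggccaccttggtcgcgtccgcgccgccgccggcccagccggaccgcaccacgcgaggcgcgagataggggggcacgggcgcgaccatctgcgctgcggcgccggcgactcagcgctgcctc
OGDHL: tgggccgcCAGCACCGTGGACAgcgccagg
TTC9B: ctgagcatCAGCACCGGGGACAgcgcgccg
OGDHL had intensities of 33.5, 34.7 and 45 in DTE and 23.4, 21.1 and 25 in DT (0.69 in deposited values and 1.31 after normalization). TTC9B had 39.7, 57.1 and 35.2 in DTE and 28.6, 23.2 and 18.2 in DT (0.91 and 1.55). The DTE arrays of both genes lay above the DT arrays.

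Genes often reported to respond to deacetylase inhibitors were more mixed. Of 30 listed 15 were measured, 4 rose and 1 fell, and the median was -0.42 in deposited values and 0.20 after normalization. The polyamine acetyltransferase SAT1 had 482, 558 and 534 in DTE and 323, 359 and 365 in DT. The secreted chaperone clusterin, CLU, had 38.7, 46.4 and 46.2 in DTE and 20.5, 18.6 and 19.2 in DT, and the glutaredoxin GLRX rose by 0.47 in deposited values and 1.01 after normalization. SYT11 was higher after normalization only (0.91, against 0.24 in deposited values). TXNIP, a thioredoxin-binding protein, fell: it had 117, 141 and 161 in DTE and 322, 262 and 329 in DT. Of 11 metallothionein genes, which bind zinc and copper and share probe sequence, 10 were measured, 2 rose and none fell. MT1X had 149, 185 and 215 in DTE and 77, 64.6 and 95.5 in DT, MT1F differed by 0.41 and 1.12 on the 2 scales, and MT2A was higher after normalization only (0.84, against 0.12). Of 28 cancer testis genes 12 were measured and 9 of these were not well above background in either arm, so they say little. MAEL, a protein of germ cell RNA silencing, had 14.5, 14 and 16 in DTE with DT not well above background.

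**Figure D3:**
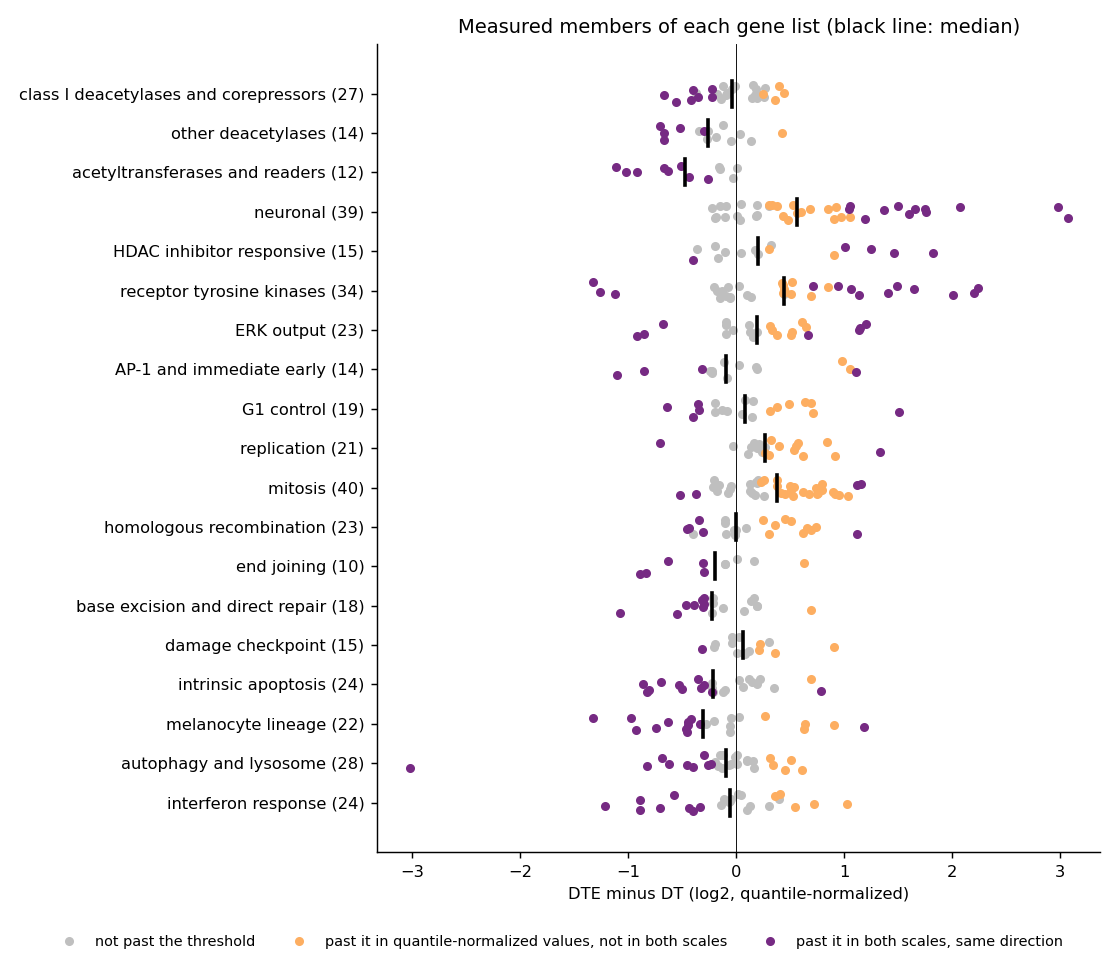
Quantile-normalized DTE minus DT difference (log2) of the measured members of 19 gene lists, with the number of measured members in parentheses and the list's median as a black line. Purple points passed the threshold on both scales in the same direction. The neuronal list (median 0.56) reaches furthest right, and no member of the acetyltransferase and reader list (median -0.48) lies right of 0 among those past the threshold.

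Receptor tyrosine kinases, which start the signals that run through RAS to the MAPK pathway, rose more often than they fell. Of 44 genes 34 were measured, 10 rose and 3 fell, 19 were higher after normalization, and the median was 0.44 there and -0.10 in deposited values. KDR, a VEGF receptor, had 52.6, 57.1 and 65.4 in DTE and 20.7, 17.3 and 21.8 in DT. MERTK, a TAM family receptor, had 38.1, 39 and 44.1 in DTE and 23.4, 21.1 and 22.1 in DT. ERBB4, a neuregulin receptor, had 24.4, 31.3 and 36.2 in DTE, with DT not well above background. ERBB3, its relative and a gene of the melanocyte lineage, went the other way with 247, 273 and 298 in DTE and 1136, 994 and 1195 in DT (-2.02 in deposited values and -1.33 after normalization, adjusted p = 3.6e-10 and 4.4e-08).

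Genes whose mRNA reports ERK activity moved in both directions. Of 33 genes 23 were measured, 4 rose and 3 fell, and 11 were higher after normalization. DUSP6, a phosphatase that switches ERK off, had 59, 64.9 and 57.3 in DTE and 184, 175 and 200 in DT (-1.63 ± 0.13 and -0.92 ± 0.09, adjusted p = 2.6e-09 and 3.8e-06). ETV4, an ETS transcription factor that ERK signalling induces, rose instead, with 39.7, 45.5 and 44.2 in DTE and 33.6, 26.4 and 31.9 in DT. The early response gene IER3 rose by 0.49 and 1.20 on the 2 scales, and TFAP2C, a transcription factor, by 0.48 and 1.14. SPRY4, a feedback inhibitor of receptor signalling, was lower in deposited values (-0.69 ± 0.17, adjusted p = 0.0013) and not called after normalization (-0.10 ± 0.13, adjusted p = 0.62). Of 19 AP-1 and immediate early genes 14 were measured, 1 rose and 3 fell, beside 4.06% and 18.1% of all genes. JUN, a subunit of AP-1, had 147, 159 and 139 in DTE and 563, 483 and 521 in DT (-1.82 ± 0.14 and -1.11 ± 0.13), and FOSL1, which pairs with it, had 34.2, 44.2 and 36.9 in DTE and 114, 104 and 101 in DT. JUNB, another AP-1 subunit, and IER5 were higher after normalization only, by 0.98 and 1.06.

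Of mitosis and replication genes, more were called higher after normalization than in deposited values, beside 16.2% and 4.09% of all genes on these scales. Of 40 measured mitosis genes out of 50, 2 rose and 2 fell, while 23 were higher and 2 lower after normalization, with medians of -0.27 in deposited values and 0.38 after normalization. TOP2A, the topoisomerase of dividing cells, had 266, 288 and 358 in DTE and 288, 269 and 317 in DT, so its arms overlapped, and it was higher only relative to the array level (0.05 in deposited values and 0.75 after normalization). The spindle kinases AURKB and BUB1 had differences of 0.20 and 0.10 in deposited values and 0.91 and 0.75 after normalization. CDK1, the kinase that drives entry into mitosis, rose on both scales, with 39.6, 42.2 and 33.7 in DTE and 28.1, 22.3 and 29.4 in DT. Of 21 measured replication genes out of 44, 1 rose and 1 fell, and 11 were higher after normalization. GINS4, of the replicative helicase, had 42.9, 45.7 and 48.1 in DTE and 31, 26.7 and 27.3 in DT, while GINS3 of the same complex had 26.9, 32.1 and 37.5 in DTE and 83.8, 67 and 81.3 in DT. CDC6, a licensing factor, and RRM2, which makes deoxynucleotides, were higher after normalization only (0.84 and 0.92).

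Of 28 genes of G1 control 19 were measured, 1 rose and 4 fell, shares near the 4.06% and 18.1% of all genes. CCND2, a D-type cyclin, had 31.9, 33.3 and 24.6 in DTE and 18.4, 18 and 10.9 in DT. CCND1, the D-type cyclin that MAPK signalling induces, was lower in deposited values (-0.57 ± 0.14, adjusted p = 0.0015), with 0.16 ± 0.08 after normalization (adjusted p = 0.13). The kinase CDK2 and the S phase transcription factors E2F7 and E2F1 were higher after normalization only, by 0.64, 0.69 and 0.71. MYC, a driver of growth, had 30.1, 33.3 and 39.8 in DTE and 47.8, 36 and 39.5 in DT, which overlapped, and its difference was -0.26 ± 0.17 in deposited values and 0.31 ± 0.10 after normalization (adjusted p = 0.2 and 0.032). Of 20 quiescence genes 17 were measured, 7 fell and none rose. YPEL5 and YPEL3, of the yippee family, had normalized differences of -0.78 and -0.73, and the insulin receptor substrate IRS2 and the repressor BCL6 were higher after normalization only (0.81 and 0.78).

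DNA repair genes are given by pathway, beside the 4.06% of all genes that rose and the 18.1% that fell. Of 23 end joining genes, which rejoin broken ends without a template, 10 were measured, 5 fell and none rose, with a median of -0.87 in deposited values and -0.20 after normalization. XRCC4, the partner of DNA ligase IV, had 66, 67.6 and 65 in DTE and 195, 182 and 206 in DT (-1.55 ± 0.13 and -0.83 ± 0.10, adjusted p = 3.6e-09 and 2.9e-05). DCLRE1C, the nuclease Artemis, had 21.7, 21.9 and 25.6 in DTE and 62.9, 50.8 and 60.8 in DT, and TP53BP1, which shields broken ends, fell by 1.30 and 0.63 on the 2 scales. MAD2L2, of the shieldin complex, was higher after normalization only (0.63, against -0.05). XRCC5, the larger Ku subunit, was lower in deposited values only (-0.73 ± 0.13, against -0.10 ± 0.07, adjusted p = 7.6e-05 and 0.33).

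Of 25 base excision and direct repair genes 18 were measured, 8 fell and none rose, with medians of -0.77 and -0.22 on the 2 scales. The glycosylase NEIL1 had 18.5, 21.5 and 21.6 in DTE and 54.3, 56.4 and 57.8 in DT. UNG, the uracil glycosylase, and APEX1, the nuclease of the next step, fell by 0.55 and 0.39 after normalization, and NEIL3 was higher there (0.70, against 0.20 in deposited values). MGMT, which removes methyl groups from guanine, had 18.9, 25 and 21.2 in DTE and 37.1, 32.1 and 36.2 in DT (-0.70 ± 0.15 and -0.31 ± 0.11, adjusted p = 0.00026 and 0.035), and with arrays centred on the median gene its call was lost (-0.257, adjusted p = 0.0549). Of 40 homologous recombination genes, which copy an intact strand, 23 were measured. Of these 1 rose and 4 fell, shares near the 4.06% and 18.1% of all genes, and after normalization 10 were higher and 4 lower, with medians of -0.39 and 0.00. SFR1 had 38.8, 38.5 and 34 in DTE and 24.3, 25.4 and 28.2 in DT, while XRCC2, the Fanconi pathway enzyme UBE2T and the helicase BRIP1 were higher after normalization only (0.70, 0.74 and 0.66). Of 8 measured excision and mismatch repair genes out of 30, 1 fell (MLH3, a mismatch repair protein, by 0.52 after normalization). Of 15 measured checkpoint genes out of 25, 1 fell (TOPBP1, an activator of ATR, by 0.32 after normalization), and CLSPN, which helps ATR activate its target kinase, was higher after normalization only (0.91).

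Genes of intrinsic apoptosis mostly fell where they passed the threshold, and are given beside the 18.1% of all genes that fell and the 4.06% that rose. Of 40 listed 24 were measured, 1 rose and 10 fell, with medians of -0.79 and -0.22. The falls were on both sides of the balance between survival and death. HTRA2, a mitochondrial protease that promotes death, had 116, 122 and 128 in DTE and 371, 339 and 353 in DT. APAF1, the scaffold of the apoptosome, fell by 0.70 after normalization, and CFLAR, an inhibitor of caspase 8, by 0.87. BCL2L11, which encodes the BH3-only protein BIM, had 104, 132 and 126 in DTE and 123, 107 and 137 in DT, and its overlapping arms differed only relative to the array level (-0.02 ± 0.15 and 0.70 ± 0.08, adjusted p = 0.9 and 1.5e-05). The gene that rose was PMAIP1, the BH3-only protein NOXA, with 17.8, 17.5 and 16.9 in DTE and DT not well above background. It was named after its values were seen.

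Melanocyte lineage genes fell more often than they rose, and are given beside the 18.1% of all genes that fell and the 4.06% that rose. Of 35 genes 22 were measured, 11 fell and 1 rose, with medians of -0.76 and -0.31. EDNRB, the endothelin receptor of melanoblasts, had 83.2, 92.8 and 75.1 in DTE and 288, 254 and 285 in DT. S100A1, a calcium-binding protein, had 24.7, 30.4 and 27.8 in DTE and 81.7, 70.5 and 72.9 in DT. IRF4, a regulator of pigment genes, was the one that rose, with 39.6, 46.3 and 43.7 in DTE and 32.7, 28 and 28 in DT. MITF, the master regulator of the lineage, had 104, 114 and 124 in DTE and 126, 116 and 124 in DT, which overlapped, and differed by -0.09 ± 0.15 in deposited values and 0.63 ± 0.08 after normalization (adjusted p = 0.62 and 5.5e-05). Of 33 genes of dedifferentiated melanoma 26 were measured, 2 rose and 6 fell, beside 4.06% and 18.1% of all genes. NRG1, a ligand of ERBB3, had 25.8, 24.5 and 26.2 in DTE and 15, 17.2 and 16.2 in DT, and IGFBP3, which binds insulin-like growth factors, had 38, 36.2 and 41.4 in DTE and 18.4, 14.4 and 21.2 in DT. ZEB2, a transcription factor of the lineage, fell by 1.51 and 0.79 on the 2 scales. Of 26 targets of YAP and TEAD 16 were measured, 3 rose and 3 fell. Among them CRIM1 and ANKRD1 rose by 1.22 and 1.10 after normalization, and CCN2 was higher there only (0.78, against 0.16 in deposited values).

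The same agent was given without the MAPK inhibitors in the E arm, and E against DMSO shares no array with DTE against DT. After normalization 2227 genes (15.3%) were higher and 2362 (16.2%) lower in E than in DMSO. In deposited values these counts were 3033 (20.8%) and 701 (4.81%), and with arrays centred on the median gene 1699 and 3813. Of the normalized calls, 1559 were also higher in DTE than in DT, which is 65.8% of the genes higher in DTE than in DT and 70.0% of those higher in E than in DMSO. The 1489 genes lower in both comparisons are 56.2% and 63.0% of the genes lower in each. Across the 14582 genes, which are not independent of one another, the 2 differences correlated at 0.779 (Pearson), and at 0.81 among the genes brighter than the median gene. Only 28 genes were higher in DTE than in DT and lower in E than in DMSO, and 42 the reverse. TSPAN13 differed by 3.90 between DTE and DT and by 3.73 between E and DMSO, and KIF5C by 3.07 and 2.99. In the neuronal list 23 of the 39 were higher with E alone and none lower, and in the acetyltransferase and reader list none was higher and 8 were lower.

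Whether the agent did something different over the MAPK inhibitors was tested gene by gene, as the DTE minus DT difference less the E minus DMSO difference. After normalization that contrast was positive for 279 genes (1.91%) and negative for 320 (2.19%). In deposited values it was positive for 30 (0.206%) and negative for 9117 (62.5%), and with each array centred on its median gene it was positive for 1872 and negative for 668. The level difference was -0.654 between DTE and DT and 0.148 between E and DMSO, and normalized values are used for this contrast. Of 21 measured replication genes 10 were positive and none negative, among them RRM2. Mitosis genes had 5 of 40 positive and none negative. The contrast subtracts the DT value and adds the DMSO value, so these counts favour genes lower in DT than in DMSO. A positive value does not place a gene above DMSO. AURKB, a positive mitosis gene, was at -1.52 in DT and -0.60 in DTE against DMSO after normalization.

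**Figure D4:**
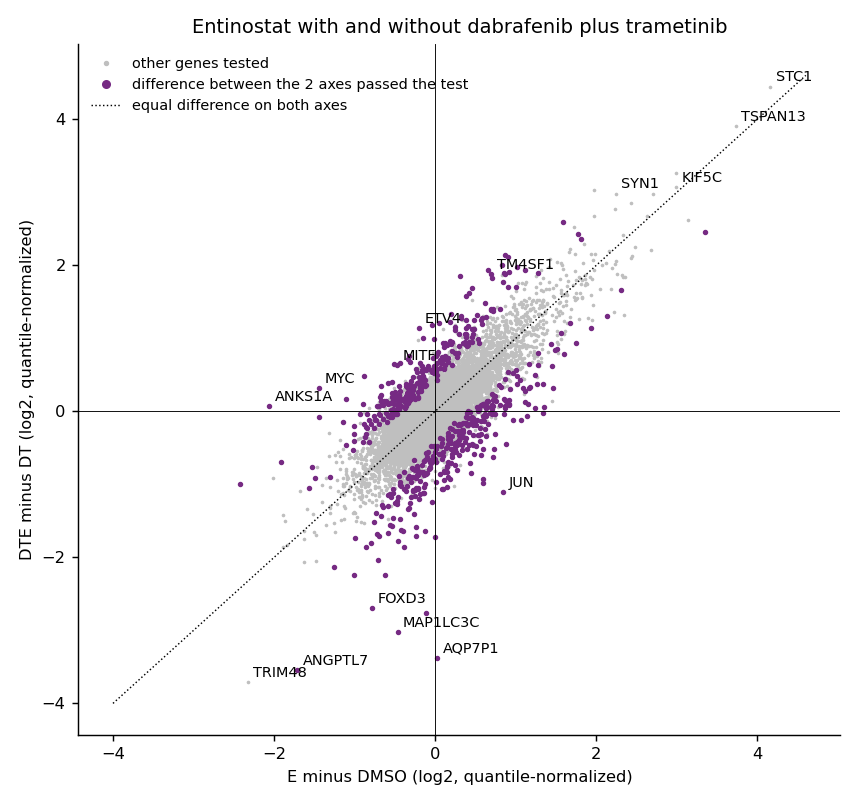
Quantile-normalized log2 difference of DTE minus DT (vertical) against E minus DMSO (horizontal) for 14582 genes. Purple genes passed the test of the difference between the 2 axes. TSPAN13 (3.90 and 3.73) lies near the dotted line of equal differences, and AQP7P1 (-3.38 and 0.03) and ANKS1A (0.07 and -2.06) lie far from it.

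The most negative genes of that contrast were all brightest in the DT arm, which the ranking itself favours, since the contrast subtracts the DT value. AQP7P1 differed by -3.38 between DTE and DT and by 0.03 between E and DMSO (interaction adjusted p = 1.6e-07). Its intensities were 20.3, 21.3 and 24.3 in DTE, 342, 281 and 305 in DT, 41.5, 45.1 and 54.2 in E, and 49.6, 36.5 and 29.2 in DMSO. ANGPTL7 had 24.8, 36.2 and 44.8 in E and 114, 110 and 96.3 in DMSO, so that it was lower with entinostat in both settings, with differences of -3.54 over DT and -1.71 alone. MAP1LC3C differed by -3.02 over DT and -0.47 alone, FOXD3 by -2.69 and -0.78, and KRTAP21-1 by -2.76 and -0.11. JUN changed direction, with -1.11 between DTE and DT and 0.84 between E and DMSO. Its E arrays had 239, 223 and 205 and its DMSO arrays 115, 129 and 101. The same 3 DT arrays give the DT minus DMSO differences of these genes, which were 3.18 for AQP7P1, 4.94 for ANGPTL7, 2.64 for MAP1LC3C, 1.96 for FOXD3, 1.53 for KRTAP21-1 and 2.52 for JUN, and those values are not separate from the DTE minus DT ones.

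The most positive genes were all lower in DT than in DMSO. The ranking itself favours such genes, since the contrast subtracts the DT value and adds the DMSO value. ANKS1A, an adaptor of Eph receptors, had 77.7, 79.2 and 90.3 in DTE and 135, 118 and 136 in DT, against 169, 247 and 278 in E and 931, 927 and 775 in DMSO. After normalization it differed by 0.07 between DTE and DT (adjusted p = 0.63) and by -2.06 between E and DMSO (interaction adjusted p = 3.4e-06). MYC had 75, 106 and 108 in E and 261, 277 and 198 in DMSO, and its normalized difference was -1.45 there against 0.31 over DT. LPXN, a focal adhesion adaptor, differed by -0.07 over DT (adjusted p = 0.69) and by -1.45 alone, and SERTAD4 by 0.16 (adjusted p = 0.37) and -1.10. ETV4 differed by 1.14 over DT and by -0.20 alone (adjusted p = 0.13). TM4SF1, a small membrane protein, was higher with entinostat in both settings, with 1216, 1348 and 1362 in DTE and 530, 498 and 515 in DT, against 2369, 2503 and 2812 in E and 1630, 1629 and 1464 in DMSO. Between DTE and DMSO the direction of TM4SF1 turned with the scale (-0.27 in deposited values and 0.57 after normalization). MITF joined these genes, since E arrays had 320, 403 and 488 and DMSO arrays 574, 537 and 454, a normalized difference of -0.47 alone and 0.63 over DT.

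**Figure D5:**
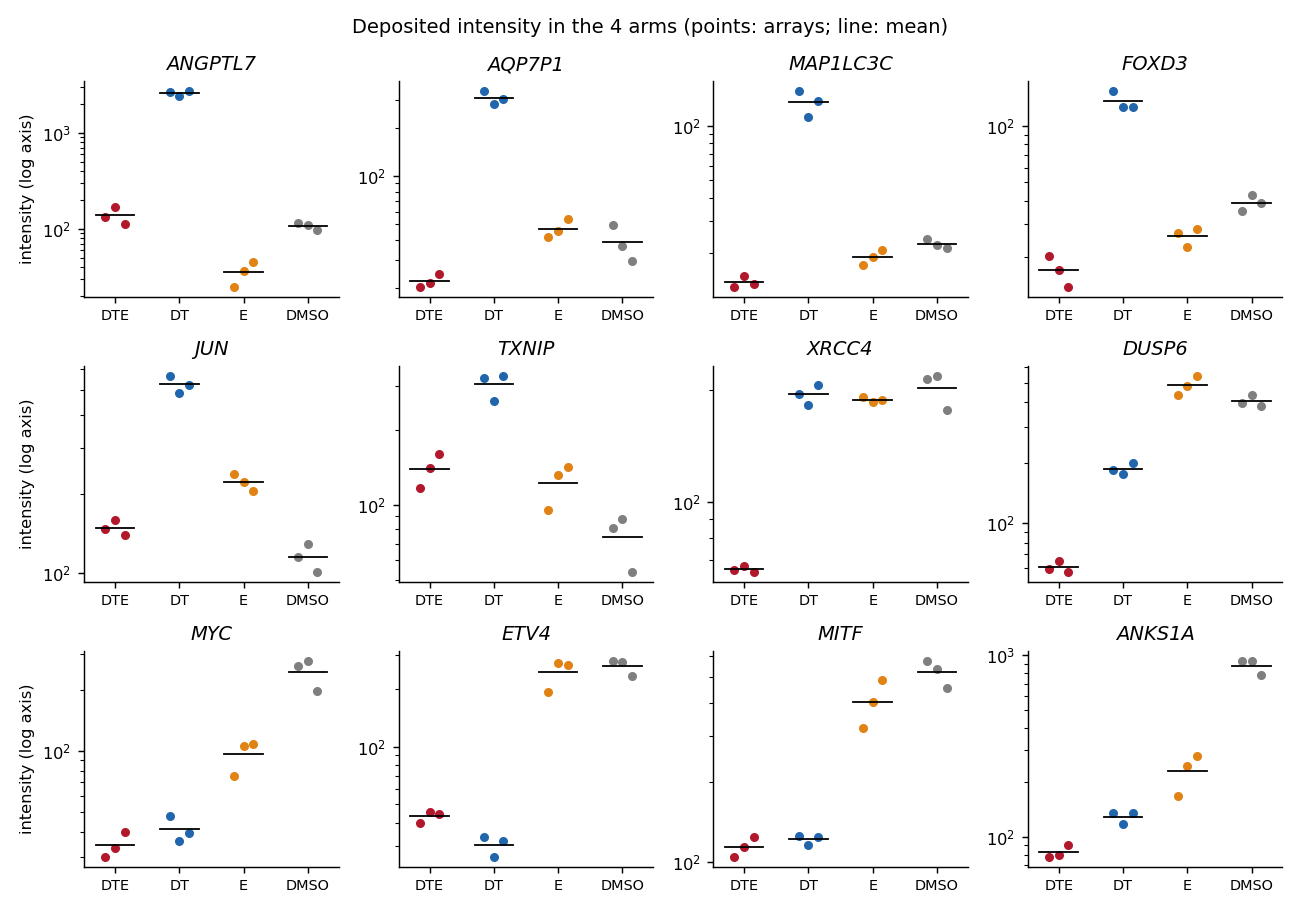
Deposited intensity (log axis) of 12 genes in the DTE, DT, E and DMSO arms, with points for arrays and lines for arm means. ANGPTL7, AQP7P1, MAP1LC3C, FOXD3, JUN and TXNIP are highest in DT, XRCC4 (65 to 67.6) and DUSP6 (57.3 to 64.9) are lowest in DTE, and MYC, ETV4, MITF and ANKS1A are low in both arms with MAPK inhibitors.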

How the data were processed

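RNA of SKMEL2 cells was measured on 12 arrays, 3 in each of 4 arms, with ERCC spike-in added before extraction, per the labels' protocols. The authors deposited 1 intensity per probe set and array on a linear scale. The submitters' processing notes name RMA and Transcriptome Analysis Console, and versions, order and any rescaling between arrays are not given in the sources used here. Here log2 of the deposited intensities was taken, with no pseudocount and no filter. A platform table with RefSeq symbols gave 1 gene for 14750 (50.2%) of 29398 probe sets, and the other 14648 stayed unnamed. The probe set with the highest mean stood for each of the 156 genes with several, which left 14582 genes. For 1 gene the probe sets were called in opposite directions.

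All 12 arrays were fitted with 1 mean per arm in limma 3.58.1 (lmFit and eBayes, R 4.3.3), once on deposited and once on quantile-normalized values (over all probe sets), with Benjamini-Hochberg adjustment per comparison at 0.05. Background was taken, per array, as percentile 95 of the dimmest 25% of genes (11.1 to 16.2). An arm whose mean was no higher was called not well above background, and a fold bound uses the background level in its place. The number of arrays limits the precision. In simulated data for DTE vs DT after normalization (14582 genes), 73.1% of changes of 0.5 (log2) and 100% of changes of 1 and of 2 were called. Only 67, 67 and 66 genes were given these changes, in directions drawn at random and with independent noise. Far more genes were called in the measured arrays, and recovery under such broad change was not tested. The comparison, the named genes and the 33 lists (1042 entries, 614 measured) were chosen with earlier results of these data known. The rule for named genes takes the 10 largest normalized rises and falls called on both scales without overlap on either. It also takes the 6 largest each way of the interaction, called on both scales. Both picks leave out genes whose highest arm mean in deposited values was not above the median gene. They skip symbols that start with LOC, LINC or MIR, hold orf, or end in a hyphenated non-coding suffix such as AS. Added to these are up to 4 members of smallest adjusted p per list and 21 fixed genes. Of the fixed genes 17 were measured and 4 are not analysed here. Lists are described by counts and medians and were not tested. Alternatives were leaving out arrays, a replicate block, another variance model, array weights, a filter on dim genes, other probe set rules, fewer arms and other scalings. The background rule and the promoter motif were chosen after values of these data were seen.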

Additional observations from a re-analysis of the deposited data

Results flagged for a closer look

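Genes named above by size of change, by the interaction or by fixed name were checked by limma's interaction test after quantile normalization. Those named by the interaction had been picked because they passed this same test. Genes named only as list members were left out, and some of them passed too, such as AURKB (0.76), APAF1 (-0.64) and BCL6 (-0.82). For 19 of the genes checked, the difference between DTE and DT itself differed from that between E and DMSO (log2, adjusted p under 0.05). The values were -3.41 for AQP7P1, -2.65 for KRTAP21-1, -2.56 for MAP1LC3C, -1.94 for JUN, -1.91 for FOXD3, -1.83 for ANGPTL7, -1.62 for ARHGEF35, -1.23 for LCTL and -0.89 for PLXNB3. Among the genes fixed by name, DUSP6 had -1.10, TXNIP -0.96 and XRCC4 -0.65. DUSP6 had 434, 481 and 540 in E and 395, 436 and 382 in DMSO, and XRCC4 had 192, 185 and 188 in E and 214, 218 and 176 in DMSO, so the E and DMSO arrays overlapped for both genes. TXNIP had 95.2, 131 and 142 in E and 81.2, 88 and 53.9 in DMSO, higher with entinostat alone and lower with it over DT. Positive values were 2.12 for ANKS1A, 1.76 for MYC, 1.37 for LPXN, 1.34 for ETV4, 1.26 for SERTAD4, 1.18 for TM4SF1 and 1.10 for MITF. The DTE arm of ARHGEF35 was not well above background, so its value depends on that floor. Probes of AQP7P1 and ARHGEF35 may bind transcripts of close relatives.

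Signal was also present in probe sets that are not named for a gene here. Of these 14648 probe sets, 460 (3.14%) were higher and 1478 (10.1%) lower in DTE than in DT on both scales.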

How the results depend on the processing

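Of the alternatives run on counts and on the overall level, the larger moves are given here, and smaller ones are left out. The 597 genes higher in DTE than in DT in deposited values became 249 among genes brighter than the median gene, 3519 (with 3737 lower) with arrays centred on the median gene, and 2369 (with 2651 lower) after quantile normalization. The quantile-normalized counts became 597 and 7869 in deposited values, and 3519 and 3737 with median centring. For E against DMSO the 2362 lower genes became 3813 with median centring and 701 in deposited values. The 2227 higher genes became 1699 and 3033. For the interaction the 279 positive genes became 444 (with 479 negative) with a trended, robust variance model and 457 (with 537 negative) among the brighter genes. They became 1872 (with 668 negative) with median centring and 30 (with 9117 negative) in deposited values. The level difference of -0.654 became -0.421 over all named genes and -0.358 over all probe sets. The filter on brighter genes leaves fewer genes to test, but the interaction counts were higher with it. The causes of these moves were not tested. Leaving out 1 array at a time gave 492 to 542 higher and 6710 to 7712 lower genes in deposited values, 2065 to 2159 and 2264 to 2374 after normalization, 1911 to 1966 and 1890 to 1983 for E against DMSO, 172 to 248 and 219 to 281 for the interaction, where 172 positive genes were left without DMSO replicate 2, and -0.714 to -0.607 for the level.

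Single genes changed sign with the scale. Against deposited values, quantile normalization gave 0.25 for HDAC1, 0.40 for HDAC2, 0.36 for HDAC3, 0.63 for MITF, 0.31 for MYC, 0.16 for CCND1 and 0.70 for BCL2L11. Median centring gave 0.29 for HDAC2, 0.0727 for HDAC3, 0.35 for MITF, 0.19 for MYC and 0.42 for BCL2L11, and left MGMT at -0.257, no longer past the threshold. BCL2L11 ranged over -0.115 to 0.0774 without single arrays. Samples of the same replicate number deviated together little (r of -0.0779 to 0.0726 over all pairs of arms). Between DTE and DT these values were 0.0208, 0.0411 and 0.0726, against -0.081 to 0.0473 for different numbers. Correlations this small cannot show whether the numbers pair the arrays. With the replicate number as a block 571 genes were higher and 7626 lower in deposited values, 2323 and 2597 after normalization, 2204 and 2295 for E against DMSO, and 256 and 298 for the interaction. The array weights did not reach their convergence tolerance.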

Other observations

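Metabolic, stress and immune lists are given beside the 4.06% of all genes that rose and the 18.1% that fell. Of 30 sterol synthesis genes 18 were measured, 1 rose and 1 fell, and 7 were higher after normalization. The gene that rose was STARD4, a cholesterol carrier, with 119, 128 and 144 in DTE and 67.1, 50.5 and 64.6 in DT. Of 25 stress response genes 12 were measured, 1 fell and none rose, and 5 were higher after normalization. The gene that fell was XBP1, a transcription factor of the unfolded protein response, with 29.8, 29.1 and 34.5 in DTE and 70.7, 65.3 and 70.9 in DT. Of 36 oxidative phosphorylation genes 10 were measured, 4 fell and none rose, among them CYC1 (353, 360 and 318 in DTE and 826, 812 and 865 in DT). Of 25 glycolysis genes 8 were measured and 1 fell, HK2, while LDHA was higher after normalization only (0.73, against 0.01 in deposited values).

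Of 35 autophagy and lysosome genes 28 were measured, 9 fell and none rose. Besides MAP1LC3C, the LC3 relative GABARAP had 151, 175 and 165 in DTE and 483, 436 and 496 in DT, and ATG13 fell by 0.69 after normalization. Of 33 interferon response genes 24 were measured, 8 fell and none rose, among them SAMD9L (24.4, 30.2 and 28.3 in DTE and 74.9, 72.1 and 70.9 in DT), while HERC5 was higher after normalization only (1.02, against 0.31). Of 30 antigen presentation genes 11 were measured, 2 rose and 2 fell. CD274, which encodes PD-L1, had 15.6, 15.4 and 15.9 in DTE with DT not well above background, and TAPBP, which loads peptides, had 104, 118 and 108 in DTE and 291, 247 and 256 in DT. Of 27 inflammatory genes 17 were measured, 9 of them not well above background in either arm, and 1 fell, RELB (-1.07 in deposited values and -0.53 after normalization).

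Ribosome biogenesis genes differed between the settings in count after normalization. Of 36 genes 22 were measured, and between DTE and DT 5 fell and none rose. In deposited values 21 were lower in DTE than in DT and none higher (median -0.77). After normalization 4 were higher and 5 lower (median -0.03). Between E and DMSO 18 were lower and none higher after normalization (median -0.45). The normalized interaction was positive for 9 of the 22 and negative for none, against 1.91% of all genes positive. That contrast favours genes lower in DT than in DMSO, and a positive value does not place a gene above DMSO. MYBBP1A, a nucleolar protein, differed by -0.63 between DTE and DT and by -1.04 between E and DMSO.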
